A study of Mus musculus with 2 samples.

Results

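Immature neutrophils marked by Ngp, Camp and Ltf were examined in lungs of tumor-bearing mice given nanoparticles (NPs) or saline. They were chosen on measured values. A cell had to have 500 to 5000 detected genes and mitochondrial transcripts under 7.5% of its unique molecular identifiers (UMIs, each counting 1 captured transcript molecule). A neutrophil had S100a8 and S100a9 at 5% or more of its UMIs, at least 2 UMIs over Csf3r, Cxcr2, Retnlg, Ly6g, Mmp8 and Ngp, and at most 1 UMI over F13a1, Ccr2, Cd79a, Cdh5 and Cd3e. Of these, cells with Ngp, Camp and Ltf at 1% or more of UMIs were kept as immature. They numbered 769 of 16995 cells, 435 of 8662 in the saline library and 334 of 8333 in the NP library, and the 7555 remaining neutrophils served as the class most like them.

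Both libraries came from lungs of female BALB/cJ mice aged 12 weeks that bore 4T1 tumors, a murine mammary carcinoma line, for 14 days. The tumor line expressed luciferase and tdTomato and was placed in the mammary fat pad. One group received intravenous saline and the other intravenous particles of the polymer PLG with no drug cargo, every 3 days starting 1 day after inoculation. Each library pooled the lungs of 4 mice by the sample labels (the methods give another number), with 1 library per treatment, and the count tables held 91168129 saline and 90081747 NP UMIs over 32285 genes. No test between treatments could be made with 1 library each, and all 95% intervals cover counting error only.

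Neutrophils mature in the bone marrow in an ordered sequence. Promyelocytes make the proteins of primary granules such as Mpo and Elane, myelocytes and metamyelocytes make those of specific granules such as Ltf, Camp and Ngp, and later stages make gelatinase granules and the receptors of the mature cell. Cells that still carry specific granule transcripts in a tissue are therefore commonly read as young neutrophils, and tumors that release G-CSF, 4T1 among them, are known to push such cells into the blood and lung.

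Ngp encodes a cathelin-related granule protein, Camp the antimicrobial cathelicidin, and Ltf the iron-binding lactoferrin. In the immature cells Ngp had 277414 saline and 226195 NP UMIs, or 25749 and 30785 CPM, the count scaled to a class total of 1e+06 UMIs. Camp stood at 11936 and 18234 CPM and Ltf at 4949 and 5997 CPM, and since these genes chose the cells their levels are a description. Lcn2, a siderophore-binding protein of the same granules that the rule did not use, had 16433 and 18014 CPM, against 4229 and 3280 CPM in the other neutrophils. Ly6g, the surface marker of mouse neutrophils, had 1375 and 1816 CPM, against 418 and 472 CPM. Of the 5 marker genes Lcn2 alone was not part of the rule, since Ly6g, like Ngp, helped to call a cell a neutrophil. Each of the 5 was higher in the cells named immature than in the other neutrophils of both libraries. The promoter of Ngp is printed because it heads the marker list. It spans 250 bases before to 50 after the RefSeq start on GRCm38.p6 (chr9:110419558-110419857, plus strand), and its capitals mark the 3 matches to TTNNGNAA, a loose C/EBP motif searched on both strands.

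Ngp: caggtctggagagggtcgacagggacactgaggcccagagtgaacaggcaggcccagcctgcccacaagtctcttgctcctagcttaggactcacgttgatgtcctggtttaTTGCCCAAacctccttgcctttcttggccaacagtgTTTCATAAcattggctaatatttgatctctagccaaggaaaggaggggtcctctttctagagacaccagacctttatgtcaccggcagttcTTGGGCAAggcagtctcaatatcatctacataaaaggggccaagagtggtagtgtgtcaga

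C/EBPε is the transcription factor needed for specific granules. The C/EBP letters lay in a promoter window of 10 of 11 matched genes of the specific granule list, which leaves out Ngp, Camp and Ltf (90.9%). They lay in a window of 3 of 9 genes of the primary granule list (33.3%) and 27 of 41 of the type I IFN list (65.9%). Of 32851 single mouse promoter windows, 40.7% held them. A gene with several windows could match in any of them, so the shares of genes and of windows differ in unit. Of the other rule genes, the Ltf promoter had 2 matches and the Camp promoter 0. Cebpe itself had 2360 saline and 2037 NP UMIs in immature cells, 219 and 277 CPM. In the other neutrophils it stood at 14.2 and 8.87 CPM, so it was higher in immature cells in both libraries.

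Leaving out the genes of the rule and genes under 200 UMIs in the neutrophils of either library, the 10 genes that stood highest over the other neutrophils in both libraries were led by Fcnb, the complement lectin ficolin B, which had 566 saline and 750 NP UMIs in immature cells. They also held Orm1, an acute phase plasma protein, and 8 genes of the cell cycle, namely Hist1h1b, Pclaf, Mki67, Top2a, Nusap1, Cdk1, Ccnb2 and Ube2c. Mki67, a nuclear antigen of cycling cells, had 33.7 and 45.2 CPM in immature and 1.23 and 1.23 CPM in other neutrophils. Since the split and these levels come from the same cells, they describe the class and do not test it. Transcripts of the receptors of mature cells were lower. Csf3r, the G-CSF receptor, had 219 and 172 CPM against 1379 and 1503 CPM, and Cxcr2, which draws neutrophils to chemokines, had 337 and 301 CPM against 1058 and 1219 CPM. Both genes were part of the neutrophil rule, which cells rich in Ngp can meet by Ngp alone, so this contrast is partly set by the rule.

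Immature cells were also deeper. Their median was 24017 UMIs in the saline and 21941.5 UMIs in the NP library, against 5966 and 5208 UMIs in other neutrophils, and they had 2614 and 2383 detected genes against 1529 and 1340. The lowest granule share among saline members was 1.00% and the highest among saline non-members 0.999%, with 20 saline members between 1% and 1.1% and 16 saline non-members between 0.9% and 1%. In the NP library these were 1.05% and 0.977%, with 5 members and 3 non-members in the same ranges. In B cells, which should lack granule transcripts, Ngp, Camp and Ltf made up 0.00293% of saline and 0.00281% of NP UMIs at median depths of 4455.5 and 4525 UMIs. In free RNA, taken from barcodes under 50 UMIs, they made up 0.422% and 0.444%, below the 1% a member needed, and S100a8 and S100a9 made up 19.5% of saline and 11.5% of NP free RNA.

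Some members stood apart. In the NP library 30 of 334 members had under 5000 UMIs, against 7 of 435 in the saline library. These 30 cells had a median of 1389 UMIs and 3.49% granule transcripts, and they held 31 of the 40 Mpo UMIs, 24 of the 26 Ctsg UMIs and 88 of the 507 Cd74 UMIs of the NP members. They gave 0.695% of the NP members' UMIs, and the 7 saline cells gave 0.212%. In 5 members, 1 of them also under 5000 UMIs, a marker list of another cell type passed 0.5% of UMIs, and these are called mixed cells. One saline cell held 3831 of the 4121 saline Scgb1a1 UMIs, Scgb1a1 being the secretory protein of club cells. The 4 NP cells carried erythroid markers in 2, macrophage markers in 1 and endothelial markers in 1. No barcode was shared between saline and NP members, although 4 members of one library shared their barcode with a cell of any kind in the other, and 21 barcodes were shared among all cells.

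The share of neutrophils that were immature was higher in the NP library, and their share of all lung cells was lower. Immature cells were 435 of 5342 saline neutrophils, or 8.14% (95% Clopper-Pearson interval 7.42% to 8.91%), and 334 of 2982 NP neutrophils, or 11.2% (10.1% to 12.4%). The ratio was 1.38 (1.20 to 1.57). Without members under 5000 UMIs the shares were 8.02% and 10.3%. Over all cells the shares were 5.02% (4.57% to 5.50%) and 4.01% (3.60% to 4.45%), a ratio of 0.798 (0.694 to 0.918). All neutrophils by the rule were 61.7% of saline and 35.8% of NP cells, a ratio of 0.580, so the immature cells were lower by a smaller factor than neutrophils as a whole. With a limit of 2% in place of 1% of granule transcripts, immature cells were 3.51% of saline and 3.37% of NP cells.

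**Figure D1:**
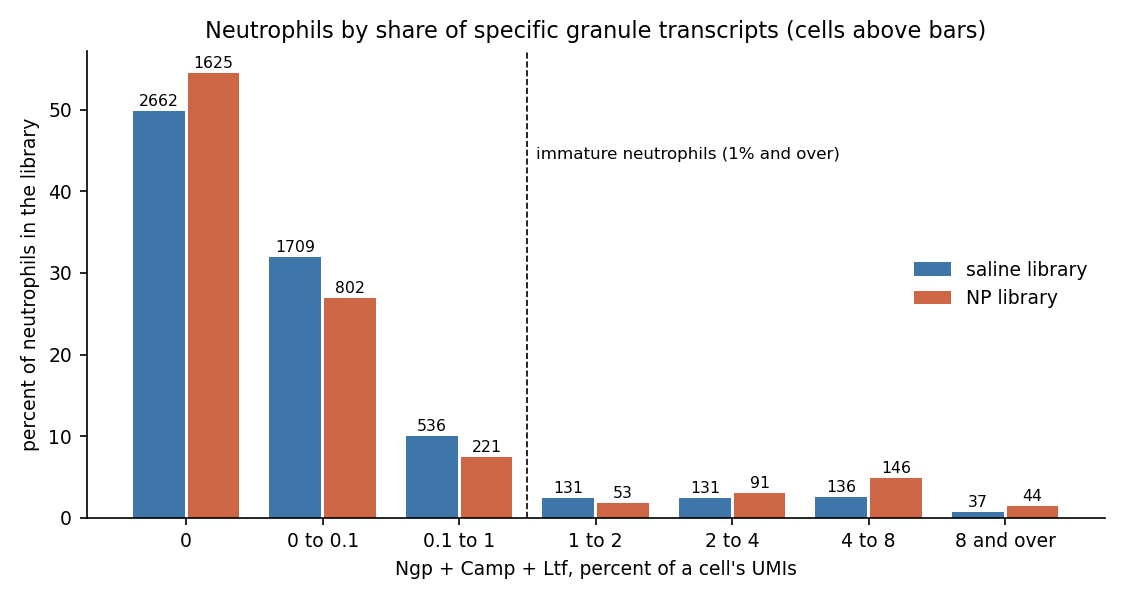
Percent of the neutrophils of each library (vertical axis) by the share of Ngp, Camp and Ltf in a cell's UMIs (horizontal axis), with the number of cells above each bar and the limit for immature cells dashed. The saline library had more of its neutrophils just above the limit than the NP library (131 and 53 cells between 1% and 2%), and the NP library had more between 4% and 8% (136 and 146 cells).

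Within the immature class the NP cells lay further toward high shares of Ngp, Camp and Ltf, the values that chose them, which is given as a description. The specific granule list, which leaves out these genes, had a median log2 ratio of 0.08. Its members ranged from −0.41 to 0.61, with Lcn2 at 0.13. The median granule share was 3.22% in saline and 4.58% in NP members. Between 1% and 2% lay 131 saline cells (30.1%) and 53 NP cells (15.9%), and between 2% and 4% lay 131 (30.1%) and 91 (27.2%). From 4% to 8% there were 136 (31.3%) and 146 (43.7%), and at 8% and over 37 (8.51%) and 44 (13.2%). At least 4% was reached by 39.8% of saline (35.1% to 44.5%) and 56.9% of NP members (51.4% to 62.3%). Along these bins, both libraries had less of the mature genes and more of the cell cycle genes. Mki67 stood at 16.0 saline and 1.21 NP CPM between 1% and 2% and at 105 and 132 CPM at 8% and over. Retnlg, a resistin-like protein of mature neutrophils, went along the same bins from 11640 to 1100 CPM in the saline and from 14622 to 968 CPM in the NP library. Retnlg was part of the neutrophil rule, which cells rich in Ngp can meet without it. The inflammatory gene Il1b, outside the rule, went from 1271 to 119 CPM in the saline and from 1016 to 167 CPM in the NP library.

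Gene by gene, a smaller share of genes passed a 2-fold difference between NP and saline in pooled immature cells than in pooled other neutrophils. The value given for each gene is the log2 ratio of its pooled CPM, NP over saline. Of 6815 genes with at least 50 UMIs over both libraries, 113 were at least 2-fold higher in NP members (1.66%) and 47 at least 2-fold lower (0.69%). The counting interval of the ratio lay above 0 for 659 genes (9.67%) and below 0 for 1076 (15.8%). In the other neutrophils 450 of 9366 genes were at least 2-fold higher (4.8%) and 149 lower (1.59%), in far more cells. This comparison depends on the pooling, since weighting each immature cell equally gave 361 genes higher and 75 lower. Subtracting free RNA gave 264 higher, and 109 when the 5 mixed cells were left out first. The other neutrophils were not recomputed in these ways. The median over all genes was −0.05 in immature and −0.10 in other neutrophils, and list medians are read beside these. No more than a size is meant by 2-fold, and nothing was tested. A gene low in one library could pass the limit of 50 UMIs only through the other, where it is high, and then had to differ. This held for 319 of the 6815 genes, and without them 64 genes were at least 2-fold higher and 24 lower.

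**Figure D2:**
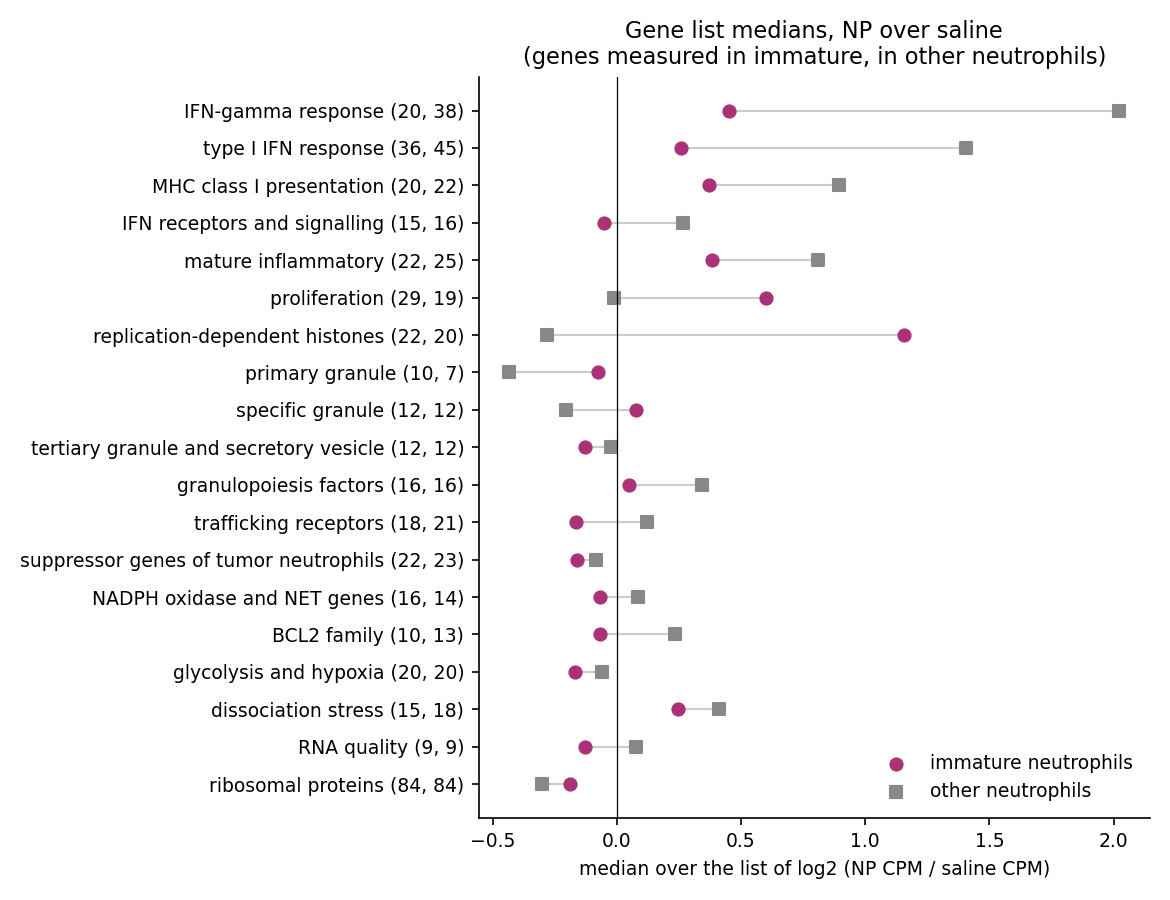
Median log2 ratio of NP over saline CPM (horizontal axis) of each gene list, in immature neutrophils (circles) and other neutrophils (squares), with the number of genes measured in each class in parentheses. The IFN-γ list stood at 0.45 in immature and 2.02 in other neutrophils, and the proliferation list at 0.60 and −0.01. The medians of a list can cover unlike sets of genes in each class. Over genes measured in both classes, the IFN-γ list stood at 0.45 and 1.64 and the proliferation list at 0.46 and −0.01.

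Interferons (IFN) act on neutrophils through the receptors Ifngr1 and Ifngr2 or Ifnar1 and Ifnar2. The transcription factors that these activate bind promoters at the GAS and ISRE motifs. The IFN-γ list had a median log2 ratio of 0.45 over its 20 measured genes in immature cells, with 6 at least 2-fold higher and 1 at least 2-fold lower (0 without the gene that passed only through the saline library), and a median of 2.02 over 38 genes in other neutrophils, with 28 at least 2-fold higher and 0 lower. The type I IFN list had a median of 0.26 over 36 genes, 3 of them at least 2-fold higher. Without the genes that passed the limit of 50 UMIs through 1 library only, 1 of 32 was. In other neutrophils its median was 1.41 over 45 genes, 31 of them higher. Over the genes measured in both classes, the other neutrophils had medians of 1.64 for 20 IFN-γ genes and 1.32 for 36 type I genes. Of all genes, 1.66% in immature cells and 4.8% in other neutrophils were at least 2-fold higher, and 0.69% and 1.59% lower. The promoters of 3 genes of these lists are printed to show the motifs, with matches to ISRE (GAAANNGAAA) and GAS (TTCNNNGAA), searched on both strands, in capitals. They come from RefSeq on GRCm38.p6, Igtp at chr11:58199306-58199605 (plus strand), Gbp2 at chr3:142620413-142620712 (plus strand) and Isg15 at chr4:156200769-156201068 (minus strand).

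Igtp: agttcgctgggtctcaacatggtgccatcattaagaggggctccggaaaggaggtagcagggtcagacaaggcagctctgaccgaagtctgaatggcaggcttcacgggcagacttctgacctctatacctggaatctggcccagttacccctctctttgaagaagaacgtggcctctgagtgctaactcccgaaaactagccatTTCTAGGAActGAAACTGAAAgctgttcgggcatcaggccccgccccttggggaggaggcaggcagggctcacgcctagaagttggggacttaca
Gbp2: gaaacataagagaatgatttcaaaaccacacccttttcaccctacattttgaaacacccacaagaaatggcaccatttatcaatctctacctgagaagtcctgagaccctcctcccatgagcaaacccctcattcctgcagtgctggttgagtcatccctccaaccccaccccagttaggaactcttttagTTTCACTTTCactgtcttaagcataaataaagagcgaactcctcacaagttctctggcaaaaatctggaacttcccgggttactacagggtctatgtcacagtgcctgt
Isg15: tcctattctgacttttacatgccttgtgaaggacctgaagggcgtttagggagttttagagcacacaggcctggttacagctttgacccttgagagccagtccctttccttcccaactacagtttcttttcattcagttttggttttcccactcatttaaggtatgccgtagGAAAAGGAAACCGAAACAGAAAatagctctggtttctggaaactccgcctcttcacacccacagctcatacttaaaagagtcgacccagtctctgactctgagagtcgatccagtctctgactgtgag

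Igtp carried 1 GAS and 1 ISRE match, Gbp2 had 1 ISRE match on the opposite strand, and Isg15 had 3 overlapping ISRE matches. Among windows not printed, those of Ifi47 and H2-K1 had 0 matches to either motif. For Irf1, 1 window had 1 GAS match and another had 0 of either. ISRE letters lay in a window of 14 of 33 matched genes of the IFN-γ list (42.4%) and 21 of 41 of the type I list (51.2%). GAS letters lay in a window of 13 of the 33 genes (39.4%). Of all single windows, 3.44% held ISRE and 8.30% GAS letters, a share of windows and not of genes.

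Irf1, a transcription factor induced by IFN, had 353 saline and 312 NP UMIs in immature cells. This was 32.8 and 42.5 CPM, a log2 ratio of 0.37 (0.15 to 0.60). In other neutrophils Irf1 had 130 and 426 CPM, a ratio of 1.71, and the difference between the classes was −1.34 (−1.57 to −1.11). The immature cells thus stood higher in NP for Irf1, by less than the other neutrophils did.

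The guanylate-binding proteins and immunity-related GTPases attack vacuoles of intracellular microbes. Igtp (chromosome 11, 58199556 to 58207591) had 44 saline and 67 NP UMIs, 4.08 and 9.12 CPM, a ratio of 1.16 (0.59 to 1.74). In other neutrophils it had 19.7 and 150 CPM, a ratio of 2.93. Gbp2 (chromosome 3, 142620602 to 142638008) had 44 and 83 UMIs, a ratio of 1.47 (0.92 to 2.03) against 2.52 in other neutrophils. For Gbp2b the ratios were 1.61 and 2.72, for Gbp7 1.18 and 2.15 and for Ifi47 1.35 and 4.18. The split of reads between near copies such as Gbp2 and Gbp2b is uncertain. Irgm1 had 51 and 48 UMIs, a ratio of 0.46 (−0.13 to 1.06), against 2.64 in other neutrophils. Each of these 6 GTPases was lower in NP immature cells than in saline other neutrophils except Ifi47, which at 8.03 CPM stood just above them.

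The chemokines Cxcl9 and Cxcl10, which draw T cells through Cxcr3, were at the limit of detection in immature cells. Cxcl9 had 0 saline and 1 NP UMIs and Cxcl10 had 2 and 3, while the other neutrophils had 0.0545 and 22.8 CPM of Cxcl9 and 1.69 and 97.1 CPM of Cxcl10. Cd274, which encodes PD-L1, had 6 and 28 UMIs in immature cells, under the 50 UMIs needed for a ratio, and 3.18 was its ratio in other neutrophils. Nos2, the inducible nitric oxide synthase, went the other way, with 93 saline and 11 NP UMIs, a ratio of −2.53 (−3.58 to −1.62), and it passed the limit of 50 UMIs only through the saline library.

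Of the type I list, Isg15, a ubiquitin-like protein (chromosome 4, 156199424 to 156200818, minus strand), had 27.9 and 50.2 CPM in immature cells. Its ratio was 0.85 (0.62 to 1.07), against 2.16 in other neutrophils. Ifit1, which binds viral RNA, had 54 and 39 UMIs, a ratio of 0.08 (−0.55 to 0.70), against 3.10. Irf7 had ratios of 0.42 and 1.47, Rsad2 of 1.40 and 3.07, and Ifi27l2a of 1.04 and 1.75. The abundant Ifitm3 had 2336 and 2318 CPM, a ratio of −0.01, against 0.31.

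Over the genes measured in both classes, the ratio was smaller in immature cells for 19 of 20 IFN-γ genes and 35 of 36 type I genes. The counting interval of the difference lay below 0 for 19 (95%) and 31 (86.1%) of them, beside 13.8% of all 6686 genes measured in both classes. The exception in the type I list was Bst2, which tethers virions, with 20 and 43 UMIs (1.66, beside 1.38). Bst2 passed the limit of 50 UMIs only through the NP library, where it is high. The exception among IFN-γ genes was Cd74, the class II invariant chain, with 40 saline and 507 NP UMIs, of which 348 came from 1 NP cell. Class II genes as a group had a median of 1.60 in other neutrophils. In immature cells it was 4.22, 2.80 without the 5 members that carried another cell type's markers, and 1.45 when members under 5000 UMIs were also left out. Of these 4 genes, 3 passed the limit of 50 UMIs only through the NP library, and their source was not tested.

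**Figure D3:**
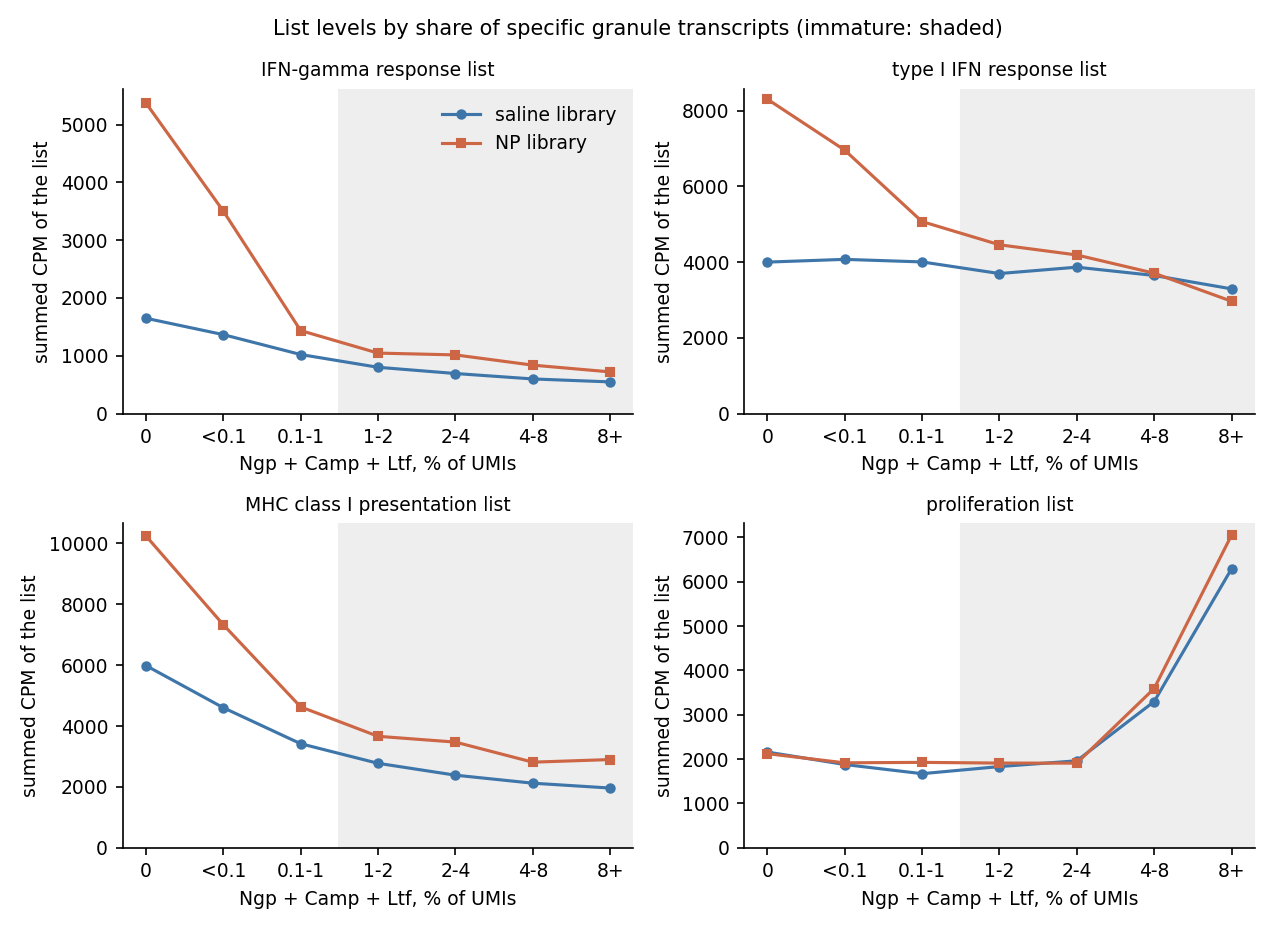
Summed CPM of 4 gene lists (vertical axes) by the share of Ngp, Camp and Ltf in a cell's UMIs (horizontal axes), in the saline (circles) and NP (squares) library, with the bins of immature cells shaded. The IFN-γ list went along the bins from 5375 to 721 CPM in the NP library and from 1650 to 548 CPM in the saline library.

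The gap between treatments was narrower at higher granule content. Summed over the IFN-γ list, neutrophils without any granule UMI had 1650 saline and 5375 NP CPM, a log2 ratio of 1.70. Cells between 0% and 0.1% had a ratio of 1.36, and those between 0.1% and 1% had 1022 and 1436 CPM, a ratio of 0.49. In the 4 immature bins the ratios were 0.39 (0.27 to 0.50), 0.55 (0.46 to 0.64), 0.48 (0.40 to 0.56) and 0.40 (0.25 to 0.54), so within the immature class they did not order by granule content. Without the mixed cells the ratios were 0.39, 0.55, 0.29 and 0.40. Leaving these cells out took Cd74 from 507 to 155 NP UMIs, and 1 NP cell held 348. The type I list went from 1.05 in cells without granule UMIs to 0.27, 0.12, 0.02 and −0.15 in the immature bins. Depth was higher along the same bins, from a median of 4642 saline and 4477 NP UMIs in cells without granule UMIs to 31021 and 30484.5 at 8% and over, and its part in these levels was not tested.

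As a share of cells, after each cell was thinned to 3000 UMIs, Gbp2, Gbp2b, Gbp7, Igtp, Irgm1, Irgm2 or Ifi47 had at least 1 UMI in 34 of 432 saline immature cells, or 7.87% (5.51% to 10.8%), and in 39 of 307 NP immature cells, or 12.7% (9.19% to 17.0%). The intervals overlap. The shares were 37.7% and 74.4% in other neutrophils and 25.1% and 32.4% in B cells, which also express such genes. No class measured here lacks them, and the part of free RNA in the low shares was not tested. Without thinning the shares in immature cells were 39.5% and 50.3%. Thinning left out 3 saline and 27 NP immature cells and 387 and 200 other neutrophils.

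Most genes of antigen presentation by MHC class I, which IFN-γ induces, were higher in NP immature cells. The class I list had a median of 0.37 over 20 genes, 17 of them above 0 and 2 at least 2-fold higher, beside 1.66% of all genes. In other neutrophils it was 0.89 over 22 genes, 9 at least 2-fold higher, beside 4.8% of all genes, and 0.86 over the same 20. The 2 in immature cells were H2-Q7 and H2-K1. H2-Q7, a nonclassical class I heavy chain, had 11 saline and 46 NP UMIs (2.62, 1.65 to 3.71), beside 2.58 in other neutrophils, and it passed the limit of 50 UMIs only through the NP library. Without the 2 such genes the class I median was 0.32 over 18 genes, with 1 at least 2-fold higher. H2-K1, a classical class I heavy chain (chromosome 17, 33996017 to 34000347, minus strand), had 532 saline and 1135 NP UMIs. At 49.4 and 154 CPM its ratio was 1.65 (1.50 to 1.80) in immature cells, beside 1.57 in other neutrophils. The difference between the classes was 0.08 (−0.08 to 0.24), which makes H2-K1 unlike Irf1 and the GTPases. Its ratio was 1.63, 1.86, 1.48 and 1.69 in the 4 immature bins, from the lowest granule content to the highest. After thinning, H2-K1 was seen in 58 of 432 saline members, or 13.4% (10.4% to 17.0%), and in 91 of 307 NP members, or 29.6% (24.6% to 35.1%). Without thinning these were 62.1% and 81.1%, and other neutrophils had 39.7% and 65.8% after thinning.

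The partner chain B2m had 338 and 478 CPM (0.50, 0.43 to 0.57), and H2-D1 had 1282 and 1647 CPM (0.36, 0.33 to 0.40). The immunoproteasome subunits Psmb8 and Psmb9 had ratios of 0.38 and 0.44 in immature and 1.12 and 0.98 in other neutrophils. Tap1, which carries peptides into the endoplasmic reticulum, had 0.54 and 1.63. BALB/c mice carry other class I alleles than the reference genome strain, and the sharing of reads among H2 genes is uncertain.

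Upstream, both chains of the IFN-γ receptor were lower in NP immature cells. Ifngr1, the ligand-binding chain of the IFN-γ receptor (chromosome 10, 19591949 to 19610229), had 1639 saline and 542 NP UMIs, 152 and 73.8 CPM. Its ratio was −1.04 (−1.19 to −0.90), against −0.41 in other neutrophils, and it was −0.74, −0.70, −0.79 and −1.08 in the 4 immature bins. Ifngr2 had −0.46 (−0.64 to −0.28) against 0.04, Jak2 −0.50 (−0.93 to −0.08) against 0.27, and Ifnar1 −0.23 (−0.66 to 0.20) against 0.30. The list of receptors and signalling had a median of −0.05 over 15 genes in immature and 0.26 over 16 genes in other neutrophils. At least 2-fold higher were 0 and 4 of them, beside 1.66% and 4.8% of all genes.

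**Figure D4:**
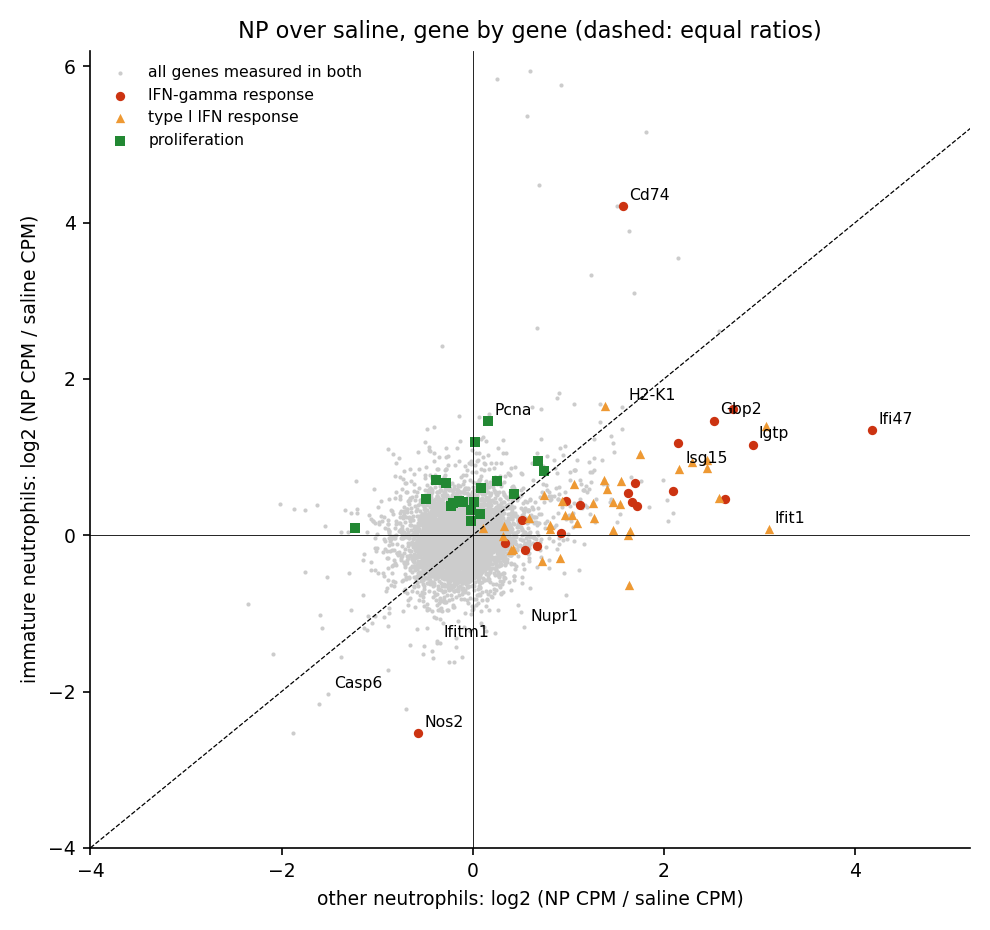
Log2 ratio of NP over saline CPM in immature neutrophils (vertical axis) against that in other neutrophils (horizontal axis) for 6686 genes measured in both, with 3 lists colored, named genes labelled, equal ratios dashed and 2 genes outside the axes. IFN-γ and type I IFN genes other than Cd74 and Bst2 lie below the dashed line, and H2-K1 lies close to it.

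Some of the most abundant transcripts of the cells were lower in NP members. Among genes reported to mark suppressive neutrophils in tumors, 4 of 22 measured were at least 2-fold lower and 0 higher, with a median of −0.16. Of all genes, 0.69% were at least 2-fold lower and 1.66% higher. Without Nos2, which passed the limit of 50 UMIs only through the saline library, 3 of 21 were lower. Other neutrophils had a median of −0.08 over 23 genes, 0 lower and 3 higher, and of −0.09 over the same 22. Summed over the list, the ratio was −0.28 in immature and −0.22 in other neutrophils. Within the 4 immature bins, from low to high granule content, the summed ratio was −0.12, −0.11, −0.10 and −0.26. Cd274, which is on this list but was not among the 22, went the other way at 6 saline and 28 NP UMIs. Wfdc17, a secreted protein of the whey acidic protein family (chromosome 11, 83703991 to 83706268), had 43364 saline and 13524 NP UMIs, 4025 and 1841 CPM. Its ratio was −1.13 (−1.16 to −1.10) in immature and −0.31 in other neutrophils. Ifitm1, an IFN-induced membrane protein (chromosome 7, 140967221 to 140969825), had 2098 and 805 CPM, a ratio of −1.38 (−1.42 to −1.34), against −0.37. The other 2 were Nos2, given above, and Cd244a (91 and 23 UMIs, −1.43). Prok2, the angiogenic factor Bv8 (chromosome 6, 99711299 to 99726392), had 407 and 230 CPM (−0.82, −0.90 to −0.74), against −0.34.

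Wfdc17 and Ifitm1 were both lower at higher granule content in each library, and their ratios were therefore also taken within bins. Wfdc17 went from 8018 to 571 CPM over the 4 bins in saline and from 5749 to 193 CPM in NP members. Within bins its ratio was −0.48, −0.66, −0.95 and −1.56. For Ifitm1 the within-bin ratios were −0.70, −0.90, −1.44 and 0.43, the last from 184 and 248 CPM at 8% and over. Both genes were lower in NP in each bin but that one.

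The stefin A family inhibits cysteine proteases and forms a cluster of near copies on chromosome 16. Cstdc4 (36184212 to 36188111) had 39080 saline and 10100 NP UMIs, 3627 and 1375 CPM, a ratio of −1.40 (−1.43 to −1.37) against −0.66 in other neutrophils, and 1 NP cell held 1085 of its UMIs. Stfa2 (36403992 to 36408457, minus strand) had 2358 and 1032 CPM, a ratio of −1.19 against −1.14. Stfa2l1 had −1.21 against −0.58, and Cstdc6 −1.21 against −1.10. How reads were split between these copies is uncertain. Within the 4 bins, from low to high granule content, the ratio of Cstdc4 was −0.24, −1.68, −0.93 and −3.94, so it was lower in NP in each bin and its size varied widely. Stfa2 was found in 318 of 435 saline and 168 of 334 NP members. Casp6, an executioner caspase, had 360 and 60 UMIs, a ratio of −2.03 (−2.45 to −1.64), against −1.51. Nupr1, a nuclear protein of the stress response, had 252 and 76 UMIs (−1.18, −1.57 to −0.80) and stood at 0.54 in other neutrophils.

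**Figure D5:**
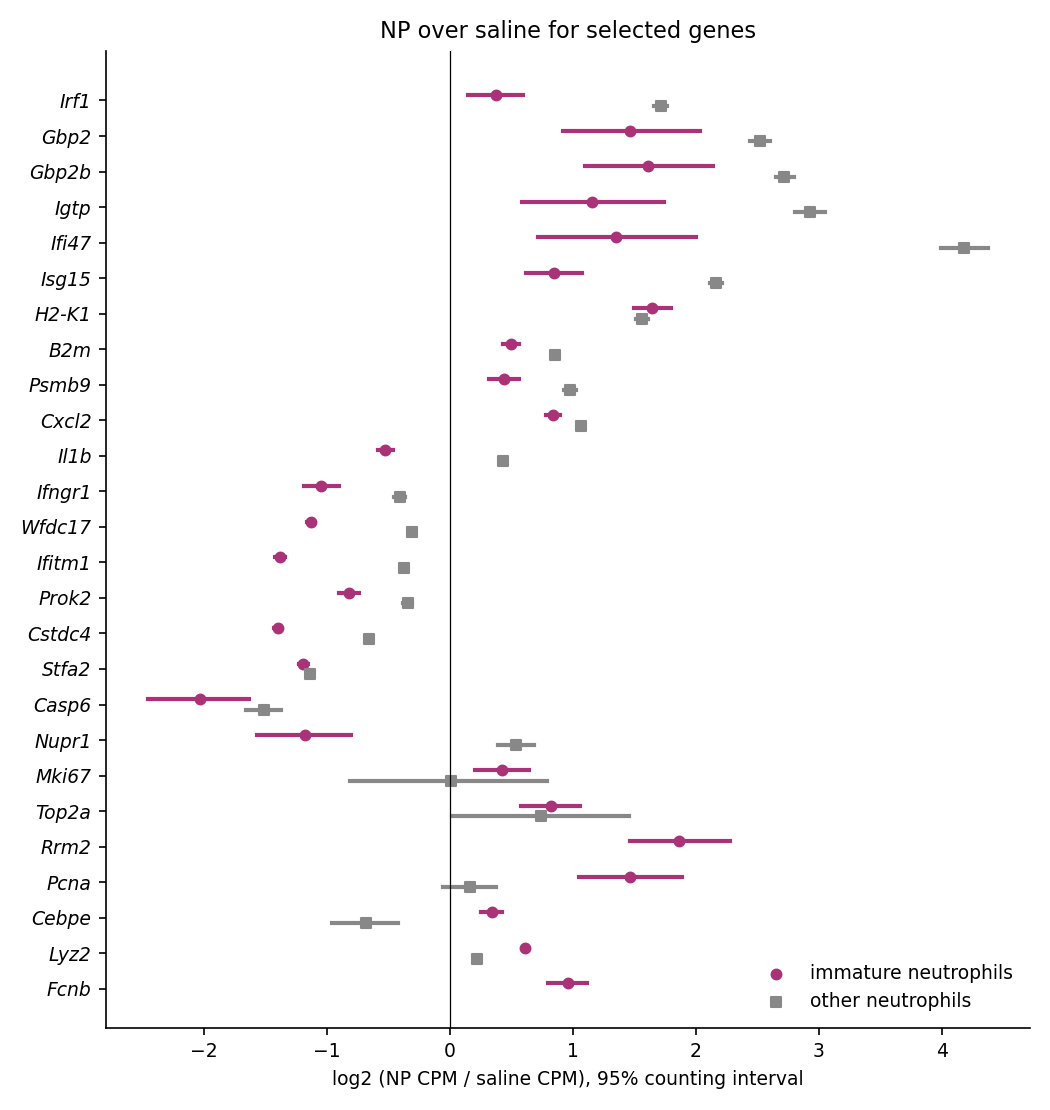
Log2 ratio of NP over saline CPM (horizontal axis) with 95% counting intervals for 26 genes, in immature (circles) and other (squares, where at least 50 UMIs were found) neutrophils. Irf1, Gbp2, Igtp, Ifi47 and Isg15 stand to the left in immature cells, H2-K1 overlaps, and Il1b and Nupr1 lie on opposite sides of 0.

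Pooled over all members, proliferation genes were higher in the NP library, by less once granule content was matched and not in every granule bin. The list had a median of 0.60 over 29 genes, 28 of them above 0, 8 at least 2-fold higher and 0 lower. Of all genes, 1.66% were at least 2-fold higher and 0.69% lower. In other neutrophils the list median was −0.01 over 19 genes, and over these 19 it was 0.46 in immature cells. Rrm1, the large subunit of ribonucleotide reductase, had 21 saline and 61 NP UMIs (2.09, 1.35 to 2.88), and Dut, a dUTPase, had 24 and 60 (1.87). Both are among 4 genes of the list that passed the limit of 50 UMIs only through the NP library, and without these 4 the median was 0.46 and 4 of 25 genes were at least 2-fold higher. Rrm2, the small subunit of the same reductase (chromosome 12, 24708241 to 24714146), had 73 saline and 181 NP UMIs (1.86, 1.46 to 2.27), and Pcna, the sliding clamp of DNA polymerase, had 75 and 141 (1.46, 1.05 to 1.89). The mitotic genes Mki67, Top2a and Ccnb2 had ratios of 0.42, 0.82 and 0.09. The replication-dependent histones had a median of 1.16 over 22 genes, 14 at least 2-fold higher, beside the same 1.66% of all genes. Without those that passed only through the NP library, 10 of 18 were. With NP cells weighted to the saline distribution over the 4 bins, the proliferation median was 0.25 and the histone median 0.85. Within the 4 bins, from low to high granule content, the summed proliferation list had ratios of 0.06, −0.04, 0.12 and 0.16 and the summed histones −0.36, −0.26, 0.54 and 0.49. Mki67 had 41 saline and 1 NP UMIs in the lowest of these bins, 27 and 7 in the next, and ratios of −0.11 and 0.34 in the higher ones, so the histones and Mki67 turned direction between bins. The number of cells behind these values differed widely. Hist1h2ap was detected in 261 saline and 173 NP members and Rrm2 in 13 and 20. Hist1h1b was detected in 27 and 18, and 1 NP cell held 111 of its 378 NP UMIs. After thinning, Mki67 or Top2a was seen in 4.40% (2.67% to 6.78%) and 6.19% (3.77% to 9.50%) of members, against 17 of 466 saline and 12 of 611 NP B cells and 0.354% and 0.490% of other neutrophils. Without thinning the members' shares were 15.4% and 13.8%, so their order turned with depth and no difference is read from it.

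Granule genes outside the rule had list medians near 0, with members on both sides. The specific granule list without Ngp, Camp and Ltf had a median of 0.08 over 12 genes, with 0 at least 2-fold higher or lower, against −0.21 in other neutrophils. In immature cells its counting intervals lay above 0 for 5 genes and below 0 for 4, beside 9.67% and 15.8% of all 6815 genes. Lyz2, lysozyme, had 6734 and 10311 CPM (0.61, 0.60 to 0.63), Lcn2 had 0.13, and Olfm4, of a subset of specific granules, had 635 and 480 CPM (−0.41). The primary granule list had a median of −0.07 over 10 genes, with Prtn3 at 71.7 and 58.5 CPM (−0.29, −0.47 to −0.12) and Elane at 72 and 38 UMIs (−0.37, −0.98 to 0.22). Weighting each cell equally turned Prtn3 to 0.59 and the primary granule median to 0.30, and allowing no UMI of the genes of other cells in the rule turned Prtn3 to 0.50. Within the 4 bins Prtn3 had ratios of 0.33, −0.41, −2.13 and 0.10, so no direction is read for it. Tertiary granule and secretory vesicle genes had a median of −0.13, with Mmp9 at 772 and 749 CPM (−0.05) and Stom, a lipid raft protein, at 248 and 78 UMIs (−1.12).

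Of the factors that direct granulopoiesis, Cebpe (chromosome 14, 54710360 to 54712174, minus strand) had a ratio of 0.34 (0.25 to 0.43), which was 0.03 when NP cells were weighted to the saline bins. Cebpb had 1416 and 1386 CPM (−0.03), against 0.34 in other neutrophils. Fcnb had 52.5 and 102 CPM (0.96, 0.80 to 1.12), and 0.51 after the same weighting. After thinning, 25 of 432 saline members had a UMI of Fcnb, or 5.79% (3.78% to 8.42%), and 38 of 307 NP members, or 12.4% (8.91% to 16.6%). Without thinning these were 20.9% and 25.1%. Thinned B cells had it in 0 of 466 and 0 of 611 cells, which allows a share of cells with a UMI of up to 0.644% and 0.491% (3 counts of the total).

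Inflammatory genes of mature neutrophils had a median of 0.38 over 22 genes, 3 at least 2-fold higher, beside 1.66% of all genes. In other neutrophils it was 0.81 over 25 genes, 11 of them higher, beside 4.8% of all genes, and 0.77 over the same 22. Cxcl2, a chemokine for neutrophils, had 430 and 769 CPM (0.84, 0.78 to 0.89), beside 1.07. Nfkbia, the inhibitor of NF-κB, had 136 and 214 CPM (0.65), beside 1.36. Il1b had 641 and 446 CPM (−0.52, −0.58 to −0.46), while other neutrophils had 9196 and 12443 CPM (0.44). The within-bin ratios of Il1b were −0.32, −0.27, 0.20 and 0.49, so its direction in immature cells was not the same at each granule content. Tnf had 29.2 and 26.9 CPM (−0.12, −0.38 to 0.14), beside 1.17.

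Trafficking receptors had a median of −0.16 over 18 genes, against 0.12 over 21 genes in other neutrophils and 0.11 over the same 18. Csf3r had a ratio of −0.35 (−0.45 to −0.25) and Selplg, the ligand of P-selectin, −0.35 (−0.44 to −0.26), against 0.12 and 0.07. Of the 3 genes above 0, Ly6g stood at 0.40 (0.37 to 0.44), Pecam1 at 0.34 (−0.39 to 1.07) and Itgam, an integrin chain, at 0.03 (−0.04 to 0.10). With NP cells weighted to the saline bins the list median was 0.00. Csf3r, also a gene of the neutrophil rule, had within-bin ratios of 0.13, −0.06, −0.13 and −0.48 from low to high granule content. Only the interval of the last lay below 0, and the others covered 0. Genes of the NADPH oxidase and of extracellular traps had a median of −0.07 over 16 genes, 0 past 2-fold, with Cybb at 0.12 and Padi4 at −0.19. The BCL2 family had −0.07 over 10 genes, with Mcl1 at 728 and 723 CPM. Glycolysis and hypoxia genes had −0.17 over 20 genes, ribosomal proteins −0.19 over 84 genes, dissociation stress genes 0.25 over 15 genes and RNA quality genes −0.13 over 9 genes. The ribosomal median turned to 0.18 and the BCL2 median to 0.27 when each cell was weighted equally, and the RNA quality median turned to 0.36 when free RNA was subtracted.

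Markers of other cell types were summed over the immature cells. Low sums were partly set by the rule, which allowed at most 1 UMI over F13a1 and Ccr2 of the monocyte, Cd79a of the B cell, Cdh5 of the endothelial and Cd3e of the T and NK cell markers. Shares of other cell types in these sums were not tested. B cell markers summed to 49 saline and 47 NP UMIs over 9 genes (4.55 and 6.40 CPM), with Igkc the most abundant and Pax5 at 0 in both. Dendritic cell markers summed to 9 and 15 UMIs (0.835 and 2.04 CPM), mostly Itgax, with Xcr1 and Cd209a at 0. Eosinophil and basophil markers summed to 30 and 16 UMIs (2.78 and 2.18 CPM), mostly Siglecf, with Epx and Prg2 at 0. Monocyte markers summed to 2486 and 3027 UMIs (231 and 412 CPM), of which Ly6c2 gave 2287 and 2794, and macrophage markers to 514 and 789 UMIs (47.7 and 107 CPM), with Marco at 0 in both and with Cd68 most abundant in saline and Apoe in NP members. T and NK cell markers summed to 128 and 177 CPM, mostly Cd3d, and fibroblast markers to 211 and 214 CPM, mostly Gsn. Endothelial markers stood at 14.3 and 30.9 CPM, led by Pecam1 and Epas1. Erythroid and platelet markers went from 221 to 5954 UMIs (20.5 and 810 CPM), and epithelial markers from 4257 to 217 (395 and 29.5 CPM).

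The genes with the highest ratios included those of the mixed cells. Hbb-bs had 70 saline and 2738 NP UMIs (5.84), and without the 5 mixed members 70 and 12 (−1.98), while Apoe turned from 2.42 to −0.76. Scgb1a1 was lower in NP either way, at −7.55 and at −3.71. H2-K1 was at 1.64 without these cells. Among genes with at least 200 UMIs, the 10 lowest ratios other than Scgb1a1 were those of Casp6, Igfbp6, Cstdc4, Ifitm1, Cstdc6, Stfa2l1, Stfa2, Nupr1 and Ggt1, and no member held more than 1085 UMIs of any of them.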

How the data were processed

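Lung cells of tumor-bearing mice given saline or NPs were profiled by droplet single-cell RNA sequencing, with 1 library per treatment. The authors deposited UMI counts per gene and barcode without further normalization, from bcl2fastq and Cell Ranger 6.0 on mm10 by the submitters' processing notes, although the deposited headers name Cell Ranger 4. All barcodes were deposited, so cells were selected here. Depth was 91168129 saline and 90081747 NP UMIs.

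Members and gene lists were chosen with earlier results of these data known. Counts were summed over the members of each library and scaled to CPM, and log2 ratios were taken for genes with at least 50 UMIs. Shares have Clopper-Pearson intervals, ratios of shares have intervals from the log ratio, and gene ratios have exact conditional binomial intervals. All are 95% intervals of counting error only, with counts under 3 set to 3 in a ratio. Tables were handled with pandas 2.3.3 and numpy 2.4.6 in Python 3.11.15, intervals came from scipy 1.17.1, doublet calls from scanpy 1.11.5 and figures from matplotlib 3.10.9. The scripts were tested on simulated data.

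Genes named are those of 27 lists and of the rule, plus, among genes with at least 200 UMIs, the 10 highest and 10 lowest ratios, the 10 highest and 10 lowest differences from other neutrophils, and the 10 highest over other neutrophils in both libraries. Class II genes, ribosomal proteins and replication-dependent histones were taken by name. Of the list symbols, 4 were not analysed here. Doublets were called with Scrublet, which marked 1 saline cell (0.0115%) and so had not worked there, and 307 NP cells (3.68%, 8 of them members). With the NP threshold in both libraries, 243 saline cells (2.81%) and 14 saline members were marked. Doublets were kept, and leaving them out by either threshold was an alternative. Free RNA was left in. Gene positions came from GENCODE M21 on GRCm38, which held 99.6% of the 32285 identifiers, and promoters from RefSeq. There were 19 alternatives planned and 5 added. Some genes of the lists are not reported here.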

Additional observations from a re-analysis of the deposited data

How the results depend on the processing

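No paired analysis was possible because each treatment had 1 library, and no replicate could be left out. Of the 19 planned and 5 added alternatives, the added ones were chosen after seeing the data. With granule transcripts at 2% or more of UMIs, the log2 ratio of the immature share was 0.73 of neutrophils and −0.058 of all cells (0.46 and −0.33 as reported), and with 0.5% or more 71 genes were at least 2-fold lower. Weighting each cell equally gave 361 genes higher and 75 lower. Subtracting free RNA gave 264 higher and 109 when the 5 mixed members were left out first, and it turned Saa3, a serum amyloid protein, from −1.01 to 6.73, or to −0.87 without those members. Lowering the limit to 20 UMIs gave 314 higher and 155 lower, and raising it to 200 gave 23 and 15. The other 114 values of the shares, the gene counts and the interferon medians moved less. Medians ranged from 0.37 to 0.70 for the IFN-γ list, 0.26 to 0.44 for type I IFN, 0.30 to 0.60 for MHC class I and 0.25 to 0.68 for proliferation. H2-K1 ranged from 1.54 to 2.43 and Ifngr1 from −1.09 to −0.80. Il1b turned to 0.26 with free RNA subtracted and was −0.54 when the mixed members were also left out. Medians near 0 changed sign under at least 1 alternative for the IFN receptor, primary, specific and tertiary granule, granulopoiesis, trafficking, NADPH oxidase, BCL2, RNA quality and ribosomal lists, so no direction is read from them. Genes under 50 UMIs in immature cells, such as Cxcl9, Cxcl10 and Cd274, are given as counts with no ratio.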

Other observations

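The list of dissociation stress genes, which holds many immediate early genes, had a median of 0.25 over 15 measured genes in NP immature neutrophils, beside −0.05 over all genes. In other neutrophils the list median was 0.41 over 18 genes and 0.21 over the same 15, and 10 of these 15 had a smaller ratio in immature cells. In immature cells the counting interval lay above 0 for 10 and below 0 for 1, beside 9.67% and 15.8% of all 6815 genes. At least 2-fold higher were 2, Egr1 and Atf3, beside 1.66% of all genes. Egr1 had 108 saline and 218 NP CPM (log2 ratio 1.02, 0.91 to 1.13), beside 0.77 in other neutrophils, and Fos had 843 and 1256 CPM (0.58), beside 0.50, while Jund had 2477 and 1143 UMIs (−0.56). Klf2, a factor of quiescent leukocytes, had 1052 and 859 CPM (−0.29), beside −0.22. The chemokine Ccl4 had 134 and 219 UMIs (1.26), of which 90 came from 1 NP cell, and Ccl3 had 44 and 94 UMIs (1.65), 35 of them in 1 NP cell. Of the survival genes, Bcl2a1b had 34 and 74 UMIs (1.67, 1.07 to 2.30), beside 1.34, and near copies share its reads.

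Of 20 glycolysis and hypoxia genes, the counting interval lay above 0 for 1 and below 0 for 10, beside the same 9.67% and 15.8%, with a median of −0.17. The 1 was Hk2, a hexokinase, with 36.8 and 64.1 CPM (0.80, 0.60 to 1.00), beside 0.37 in other neutrophils, whereas Egln3, an oxygen-sensing hydroxylase, had 51 and 14 UMIs (−1.31, −2.28 to −0.44), beside −0.17, and passed the limit of 50 UMIs only through the saline library. Steap4, a metalloreductase, had 428 and 157 UMIs (−0.89, −1.17 to −0.63) and a ratio of 0.47 in other neutrophils. None of these differences was tested, since each treatment had 1 library.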
